A study of Mus musculus with 6 samples.

Results

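The integrin subunit and laminin chain genes were followed in tumours of MASE2 cells that grew in SCID mice carrying 17β-estradiol (E2) or placebo pellets. The family was taken by gene symbol from the array annotation, by a rule that uses no measured value. It comprised 36 of the 19937 genes measured, namely 18 integrin alpha subunits, 8 integrin beta subunits, 5 laminin alpha chains, 3 laminin beta chains and 2 laminin gamma chains. Each gene was read by 1 probe set, and for Itgad, which had several, the brightest was used. The E2 group held 3 tumours from SCID mice given an E2 pellet when the MASE2 cells were injected, and the placebo group held 3 tumours from SCID mice given a placebo pellet in the same way. MASE2 cells are mouse ascites cells from the tgCAG-LS-TAg ovarian cancer model, in which adenoviral Cre delivered into the ovarian bursa switches on the SV40 large and small T antigens in the ovarian surface epithelium (OSE). The labels say that the model had itself been treated with E2, so cells of that history were used for both groups. The SCID host has no mature T or B lymphocytes but keeps macrophages, granulocytes and natural killer cells, and the arrays read host and tumour RNA together, since both are of mouse origin. Tumours were collected at a loss-of-wellness endpoint, and the labels give no pellet dose, host age or day of collection.

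Integrins are cell surface receptors made of an alpha and a beta subunit that tie the cell to the extracellular matrix, or in leukocytes to other cells, and pass signals in both directions across the membrane. Laminins are secreted trimers of an alpha, a beta and a gamma chain that polymerise into the basement membrane, the sheet on which epithelia, endothelia and muscle fibres rest. The ovarian surface epithelium lies on such a basement membrane, and ovarian tumour cells shed into ascites use integrins to attach to the lining of the peritoneum.

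All values are log2 intensities after RMA, so a difference of 1 is a doubling of signal. Levels were compared between arrays within a gene and not between genes. The exception is the lower quartile of all genes on each array, used only to mark dim values. The array of placebo replicate 3 stood apart, with a Pearson r of 0.857 to 0.865 with the other arrays over all genes, against 0.960 to 0.994 among the others. It was the array with the highest or the lowest value in 19 of the 36 genes (10 highest, 9 lowest), against 60.9% of all genes. All 17 measured markers of intestinal epithelium were highest in that sample, among them Lct, the lactase gene, and Apoa4, an intestinal apolipoprotein gene, which measured 7.49 and 11.88 there and at most 4.74 and 5.57 on any other array. Their mean level was 4.37 to 4.69 in the E2 tumours, against 4.50 and 4.55 in placebo replicates 1 and 2 and 10.40 in placebo replicate 3. Each result is therefore given on all 6 arrays and, where it changes, on the 5 arrays without placebo replicate 3.

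No integrin or laminin gene passed the threshold on all 6 arrays (0 of 36 at a limma adjusted p under 0.05, against 1.38% of all genes tested). At an unadjusted limma p under 0.05 there were 14 of 36 (38.9%), against 16.5% of all genes. Of these, 4 were higher with E2 (background 10.4%) and 10 were lower (background 6.16%). The E2 and placebo arrays did not overlap in 17 genes, 5 with all E2 tumours above (background 14.9%) and 12 with all E2 tumours below (background 11.4%). The median difference over the 36 genes was -0.16 log2, beside -0.01 log2 over all genes. With placebo replicate 3 left out, 11 of the 36 genes passed (30.6%, against 11.6% of all genes). In that 5-array fit Itga2, Itga6, Itga9 and Itgb3 rose (4 genes, background 6.4%), while Itga1, Itga3, Itga4, Itga11, Itgb2, Itgb8 and Lama3 fell (7 genes, background 5.21%). All 11 had the same direction on 6 arrays. For 9 of them, all but Itga6 and Itgb2, the unadjusted p was under 0.05 there and the groups did not overlap. The 5 arrays that picked these genes are among the 6, so this likeness was largely set in advance and is no separate support. The same counts over all genes that passed in the 5-array fit are not given here. When another array was left out instead, 1 member passed without placebo replicate 1 (Itga1, lower, against 0.391% of all genes and 0.0803% lower). None passed without placebo replicate 2 (background 1.02%) or without E2 replicate 1, 2 or 3 (background 0.155%, 0.216% and 0.221%). With arrays weighted by their agreement with the fit, 10 of the 11 passed (background 8.96%), 4 higher (5.15%) and 6 lower (3.81%). For a gene tested alone, an exact permutation test of 3 tumours against 3 cannot go below p = 0.1, so the calls rest on limma's pooling of variance over all genes. These are bulk tumours, in which fewer cells of a type and less RNA per cell cannot be told apart.

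**Figure D1:**
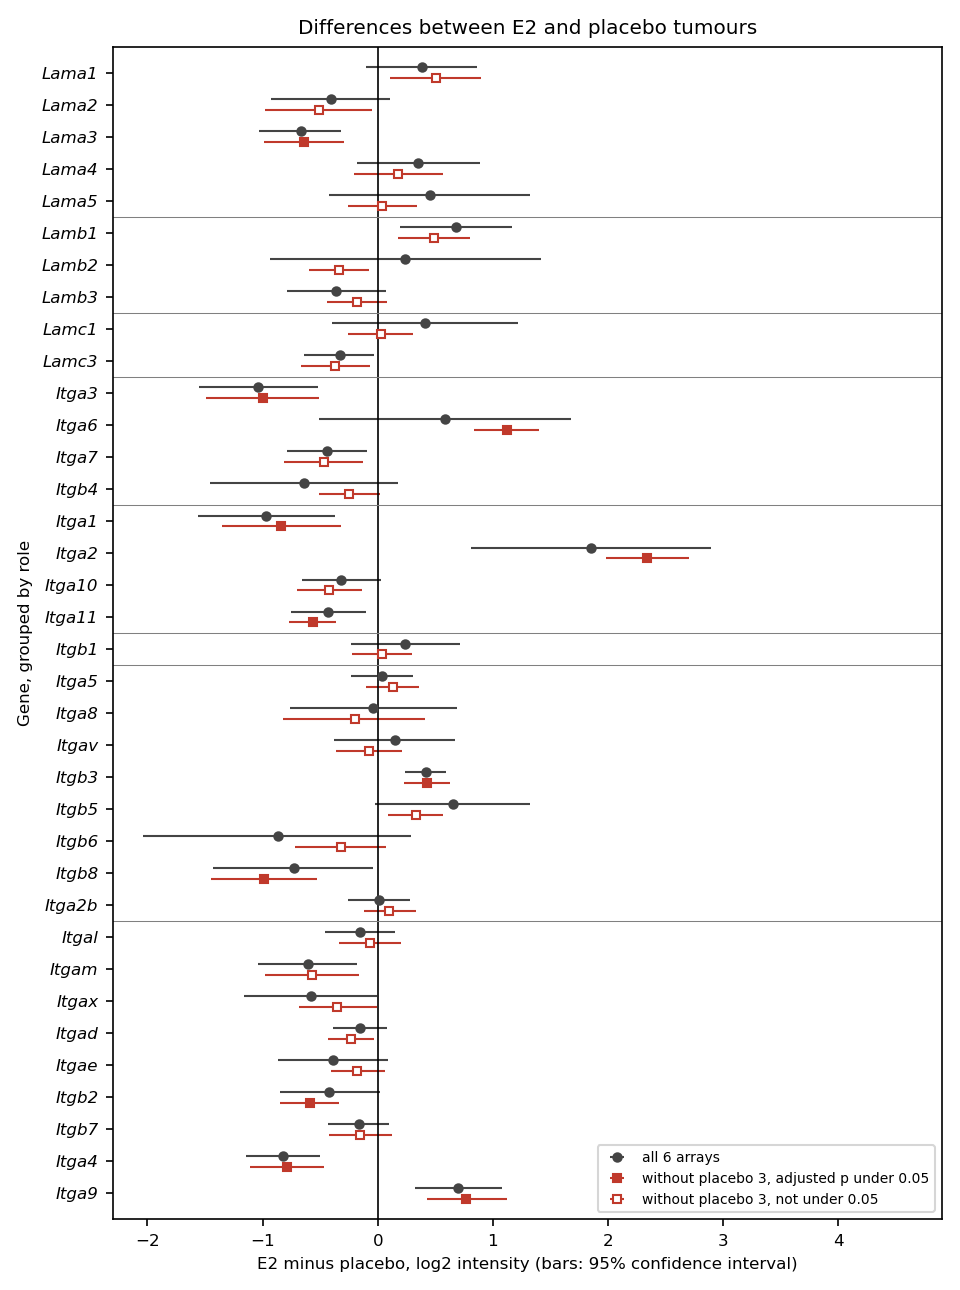
Differences between E2 and placebo tumours for the 36 genes, as log2 intensity with 95% confidence intervals from limma, on all 6 arrays (circles) and without placebo replicate 3 (squares, filled where the adjusted p was under 0.05). Itga2 lies farthest to the right on 6 arrays at 1.85 and Itga3 farthest to the left at -1.04.

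Among the laminin alpha chains, Lama3, the chain of the epithelial laminin that anchors hemidesmosomes, was lower in every E2 tumour. It measured 4.93, 4.52 and 4.98 in the E2 tumours, against 5.36, 5.54 and 5.54 in the placebo tumours. The groups did not overlap, and the difference was -0.67 log2 (SE 0.15, 95% interval -1.03 to -0.32, limma adjusted p = 0.0990). It passed without placebo replicate 3, where it fell by 0.64 on the log2 scale (limma adjusted p = 0.0315). Lamb3, the beta chain that assembles with the Lama3 product, measured 4.65 ± 0.12 in the E2 tumours and 5.01 ± 0.32 in the placebo tumours (SD, n = 3 each) and did not pass (adjusted p = 0.377). Its highest value, 5.36, was in placebo replicate 3, and without that array the difference was -0.18 log2.

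Lama1, a chain of early embryonic and some adult epithelial basement membranes, measured 5.60, 5.04 and 5.07 in the E2 tumours, against 4.67, 4.79 and 5.12 in the placebo tumours. Only placebo replicate 3 overlapped the E2 tumours, and the difference of 0.38 log2 did not pass (adjusted p = 0.401, and 0.106 without that array). Lama2, the main alpha chain of muscle and peripheral nerve basement membranes, was 0.41 log2 units lower (adjusted p = 0.398). Lama4, a chain of vascular basement membranes, differed by 0.35 log2 (95% interval -0.18 to 0.89). Skeletal muscle markers, set beside Lama2 because muscle makes it, had mean levels of 6.82 to 9.13 in the E2 tumours and 5.16 to 9.15 in the placebo tumours, with the highest values in E2 replicate 3 and placebo replicate 2. None of the 10 had an unadjusted limma p under 0.05 (background 16.5%). The 2 with the smallest p were Tnnt3, a fast muscle troponin, and Acta1, the skeletal actin (1.06 and 1.13 log2, adjusted p = 0.616 and 0.628). Their part in the Lama2 values was not tested.

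The chains of the widespread laminins of adult basement membranes were each low in placebo replicate 3 alone. Lama5, their alpha chain, measured 7.44, 7.34 and 7.71 in the E2 tumours, against 7.53, 7.38 and 6.22 in the placebo tumours. Lamc1, the gamma chain shared by most laminins, measured 8.25, 7.99 and 8.34 in the E2 tumours, against 8.15, 8.18 and 7.01 in the placebo tumours. Lamb2, a beta chain of kidney and synaptic laminins, measured 8.02, 7.96 and 8.16 in the E2 tumours, against 8.27, 8.50 and 6.64 in the placebo tumours. Placebo replicate 3 was the lowest array for all of them. Relative to the mean of the other placebo tumours it stood at -1.23 log2 for Lama5, -1.15 for Lamc1 and -1.75 for Lamb2. None passed on 6 arrays (differences of 0.45, 0.41 and 0.24 log2, adjusted p = 0.558, 0.567 and 0.829). Without that array the differences were 0.04 log2 for Lama5 (95% interval -0.26 to 0.34) and 0.03 for Lamc1 (-0.26 to 0.31), and that of Lamb2 turned to -0.34 (-0.60 to -0.08, adjusted p = 0.0984).

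Lamb1, the other widespread beta chain, was the laminin with the largest positive difference on 6 arrays, though not without placebo replicate 3, where Lama1 stood at 0.51 log2. It measured 8.59, 8.35 and 8.67 in the E2 tumours, against 7.89, 8.20 and 7.47 in the placebo tumours. All E2 values lay above all placebo values, by 0.68 log2 on average (SE 0.20, adjusted p = 0.182), and by 0.49 without placebo replicate 3 (SE 0.14, adjusted p = 0.0572). Lamc3, a gamma chain with narrower expression, measured 4.91 ± 0.08 in the E2 tumours and 5.25 ± 0.20 in the placebo tumours (SD, n = 3 each), without overlap (adjusted p = 0.264). Over the 10 laminin chains the median difference was 0.30 log2 on 6 arrays and -0.08 log2 without placebo replicate 3, so its sign depended on that array.

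**Figure D2:**
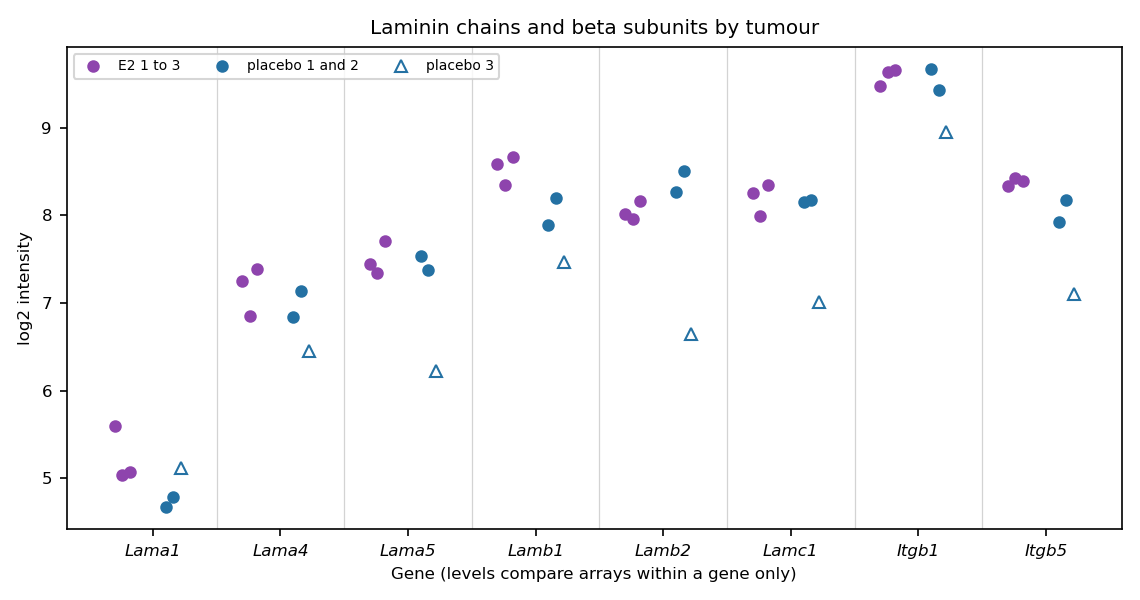
Log2 intensity of 6 laminin chains and 2 integrin beta subunits in each E2 tumour (purple), placebo replicates 1 and 2 (filled blue) and placebo replicate 3 (open triangle). Placebo replicate 3 is the lowest array for Lama4, Lama5, Lamb1, Lamb2, Lamc1, Itgb1 and Itgb5, and Lamb1 and Itgb5 lie higher in every E2 tumour than in every placebo tumour.

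The laminin receptor subunits differed in opposite directions. Itga3, a laminin receptor subunit of epithelia, was lower in every E2 tumour, at 6.58, 6.74 and 7.15 against 8.12, 7.52 and 7.94 in the placebo tumours. The difference was -1.04 log2, a 2.05-fold lower signal (SE 0.21, 95% interval -1.55 to -0.52, adjusted p = 0.0869). In the 5-array fit Itga3 passed and fell by 1.00 on the log2 scale (limma, adjusted p = 0.0220). Mesothelial markers moved the same way, with summed intensities of 1443 to 1760 in the E2 tumours and 6064 to 6901 in the placebo tumours. The highest sum was in placebo replicate 3, although its mean level, 7.31, was below the 8.10 and 8.15 of the other placebo tumours. The mean level was 5.88 to 6.17 in the E2 tumours. On 6 arrays 2 of the 15 markers fell (background 0.326%). They were Krt7, a simple-epithelial keratin (-2.36 log2, limma adjusted p = 0.00445), and Cldn15, a claudin (-2.55 log2, adjusted p = 0.0262). Cldn15 was highest in placebo replicate 3, at 8.70, against 7.54 and 7.89 in the other placebo tumours. In the 5-array fit 12 of those 15 fell (background 5.21%). Host and tumour RNA are read together, so these markers do not tell host mesothelium from tumour cells of ovarian surface origin. The part of these markers in the Itga3 and Lama3 values was not tested.

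Itga6, which forms laminin receptors with the beta-1 or the beta-4 subunit, measured 7.65, 7.81 and 7.96 in the E2 tumours, against 6.58, 6.79 and 8.29 in the placebo tumours. The E2 tumours all lay above placebo replicates 1 and 2 and below placebo replicate 3. On 6 arrays the difference of 0.58 log2 had an interval from -0.51 to 1.68 (adjusted p = 0.551), while without placebo replicate 3 Itga6 rose by 1.12 on the log2 scale, or 2.17-fold (SE 0.12, adjusted p = 0.00135). Itgb4, the hemidesmosomal partner of the Itga6 product, went the other way. It measured 5.25, 5.14 and 5.12 in the E2 tumours, against 5.57, 5.27 and 6.59 in the placebo tumours. Its groups did not overlap, and placebo replicate 3 was the highest array. The difference was -0.64 log2 on 6 arrays (adjusted p = 0.404) and -0.25 log2 on 5 (adjusted p = 0.232). Itga7, the laminin receptor subunit of muscle, was 0.44 log2 units lower with E2 (95% interval -0.79 to -0.09, adjusted p = 0.219). It measured 5.81, 5.77 and 6.13 in the E2 tumours, against 6.21, 6.54 and 6.27 in the placebo tumours, without overlap. Mean skeletal muscle marker levels were 7.29, 6.82 and 9.13 in the E2 tumours, against 6.70, 9.15 and 5.16 in the placebo tumours. Within each group both were highest in E2 replicate 3 and placebo replicate 2. Among the placebo tumours the markers were lowest in placebo replicate 3, and Itga7 measured 6.21 in placebo replicate 1 and 6.27 in placebo replicate 3. The part of muscle RNA in the Itga7 values was not tested.

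Itga2 had the largest difference of the family. Its product pairs with the beta-1 subunit as a collagen receptor that also binds laminin, and is known from epithelial cells and platelets. The E2 tumours measured 7.51, 7.20 and 7.69, against 4.99, 5.26 and 6.59 in the placebo tumours. Every E2 value lay above every placebo value, and placebo replicate 3 lay between the other placebo tumours and the E2 tumours. The signal was 1.85 log2 units higher with E2, or 3.60-fold (SE 0.43, 95% interval 0.81 to 2.89, limma adjusted p = 0.113). On the 5 remaining arrays Itga2 rose by 2.34 log2 units, or 5.06-fold (SE 0.16, 95% interval 1.98 to 2.70, adjusted p = 0.000203). Platelet markers had a summed intensity of 138 to 149 in the E2 tumours and 152 to 181 in the placebo tumours. Of these 6 markers 2 lay under the lower quartile on every array. None passed on 6 arrays (limma, 2 at an unadjusted p under 0.05, background 16.5%). The smallest p were those of the platelet genes Ppbp and Gp9 (-0.39 and -0.27 log2, adjusted p = 0.0886 and 0.232), of which Ppbp was under that quartile on all 6 arrays. The part of platelet RNA in the Itga2 values was not tested.

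The other collagen receptor subunits lay lower with E2. Itga1, a collagen receptor subunit of mesenchymal cells and vessels, measured 5.47, 5.28 and 5.57 in the E2 tumours, against 5.86, 6.69 and 6.67 in the placebo tumours. The difference was -0.97 log2 (SE 0.24, adjusted p = 0.136). It passed when either placebo replicate 1 or placebo replicate 3 was left out, at -1.24 (adjusted p = 0.0430) and -0.84 log2 (adjusted p = 0.0496). Itga11, the fibrillar collagen receptor subunit of fibroblasts, measured 4.59, 4.63 and 4.53 in the E2 tumours, against 5.15, 5.14 and 4.74 in the placebo tumours. It was 0.43 log2 units lower on 6 arrays (adjusted p = 0.201) and fell by 0.56 on the log2 scale, past the threshold, without placebo replicate 3 (adjusted p = 0.00661). Itga10, known from cartilage, was 0.32 log2 units lower without overlap (adjusted p = 0.338). Fibroblast markers had mean levels of 7.00 to 7.47 in the E2 tumours and 7.15 to 7.77 in the placebo tumours, and their summed intensities of 4109 to 4705 and 3699 to 5960 overlapped. None of the 12 fibroblast markers passed on 6 arrays (limma, 5 at an unadjusted p under 0.05, background 16.5%). Without placebo replicate 3, 1 rose (background 6.4%) and 5 fell (background 5.21%). The smallest p on 6 arrays were those of Col3a1, a fibrillar collagen, and Lum, the proteoglycan lumican (-1.40 and -1.22 log2, adjusted p = 0.0704 and 0.147). Smooth muscle and pericyte markers had summed intensities of 1334 to 1775 in the E2 tumours and 1584 to 2797 in the placebo tumours. None of those 15 passed on 6 arrays (limma, 3 at an unadjusted p under 0.05, background 16.5%), where the pericyte genes Rgs5 and Notch3 came first (-1.24 and -0.63 log2, adjusted p = 0.114 and 0.193). Their part in the Itga1 and Itga11 values was not tested.

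**Figure D3:**
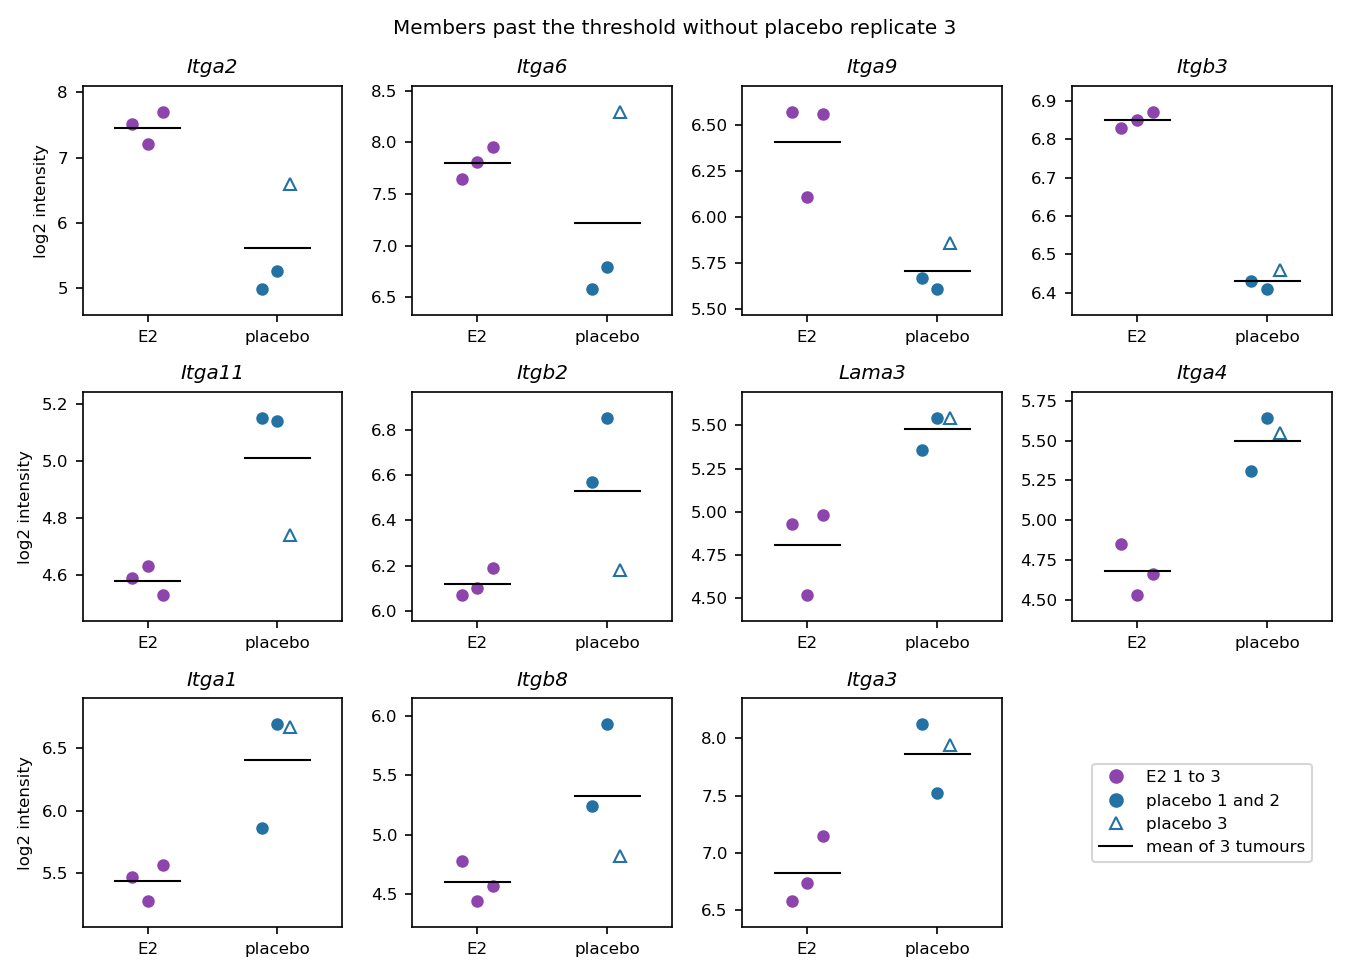
Log2 intensity by tumour of the 11 genes that passed without placebo replicate 3, with E2 tumours left of placebo tumours and a line at each mean of 3. Placebo replicate 3 (open triangle) lies above the E2 tumours for Itga6 and nearer to them than the other placebo tumours do for Itga2, Itga11, Itgb2 and Itgb8, while for Itga3, Itga4, Itga9, Itgb3 and Lama3 it lies with the other placebo tumours.

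Because Itga2 and Itga11 encode collagen receptor subunits that differed in opposite directions, the bases just before their start sites are shown, from RefSeq (GRCm38.p6), 5′ to 3′ on the strand of the gene. Capitals mark GGTCA, 1 arm of the oestrogen response element, on either strand. The Itga2 window is chr13:114932101-114932350 on the minus strand, and the Itga11 window is chr9:62677605-62677854 on the plus strand.
Itga2: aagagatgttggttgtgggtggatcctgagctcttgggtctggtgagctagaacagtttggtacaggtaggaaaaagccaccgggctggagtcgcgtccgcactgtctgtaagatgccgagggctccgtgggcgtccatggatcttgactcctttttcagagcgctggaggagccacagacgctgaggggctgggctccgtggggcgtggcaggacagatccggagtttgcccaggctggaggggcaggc
Itga11: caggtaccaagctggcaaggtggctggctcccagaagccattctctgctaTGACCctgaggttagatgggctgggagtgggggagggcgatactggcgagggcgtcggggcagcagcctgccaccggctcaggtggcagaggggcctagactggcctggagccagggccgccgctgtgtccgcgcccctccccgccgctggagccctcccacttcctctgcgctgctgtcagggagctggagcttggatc
The Itga2 window held 0 such arms and the Itga11 window 1. RefSeq windows of 250 bases before to 50 bases after a start site were found for 23 of the 36 genes (26 windows). The full element, GGTCA and TGACC with any 3 bases between them, was in 0 of these 26 windows and in 0.07% of 32851 windows of all genes. The single arm, which the full element contains, was in 6 of these 26 windows, from 6 genes, against 40.5% of all windows. Among the genes that passed without placebo replicate 3, windows were found for 2 of the 4 that rose, with 0 holding the arm, and for 5 of the 7 that fell, with 2 holding one (Itga3 and Itga11). Itga1, the collagen receptor subunit that fell further than Itga11, had 1 window, which held 0 arms. The AP-1 site TGANTCA was in 3 of the 26 windows, from 3 genes, against 7.81% of all windows. Those genes were Itgax, Itga9, which rose without placebo replicate 3, and Itga3, which fell. The GC box GGGCGG was in 12 of the 26 windows, from 11 genes, against 35.7% of all windows. A letter match is not evidence of binding, and more distant sequence was not searched.

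Itgb1, the beta subunit shared by the collagen and most laminin receptors, measured 9.47, 9.64 and 9.66 in the E2 tumours, against 9.67, 9.43 and 8.95 in the placebo tumours. The groups overlapped, and without placebo replicate 3 the difference was 0.04 log2 (95% interval -0.22 to 0.30).

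Among subunits that recognise the RGD sequence of fibronectin, vitronectin and related proteins, Itgb3 showed the tightest values. It measured 6.83, 6.85 and 6.87 in the E2 tumours, against 6.43, 6.41 and 6.46 in the placebo tumours. The groups did not overlap, and the SD was 0.02 in the E2 tumours and 0.03 in the placebo tumours. The difference was 0.42 log2, or 1.33-fold (SE 0.07, 95% interval 0.24 to 0.59), with an adjusted p of 0.0600 on 6 arrays and 0.0177 without placebo replicate 3. Leaving out any of the arrays left the difference between 0.40 and 0.43 log2. With a trended and robust variance the SE was 0.12 (limma adjusted p = 0.176). After repeated quantile normalization the difference was 0.30 log2 (adjusted p = 0.234). Itgb3 passed with array weights (adjusted p = 0.0151) but not with the replicate number as a block (0.296). Itgav, the alpha subunit that pairs with the Itgb3 product, differed by 0.15 log2 (95% interval -0.38 to 0.67), and by -0.08 without placebo replicate 3 (-0.36 to 0.21). Itgb5, another partner of the alpha-v subunit, measured 8.33, 8.42 and 8.39 in the E2 tumours, against 7.92, 8.17 and 7.10 in the placebo tumours. Its groups did not overlap, and the difference of 0.65 log2 (adjusted p = 0.316) was 0.33 without placebo replicate 3 (adjusted p = 0.0891).

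Itgb8, whose product helps activate latent transforming growth factor beta, was lower in every E2 tumour. It measured 4.78, 4.44 and 4.57 in the E2 tumours, against 5.24, 5.93 and 4.82 in the placebo tumours. The difference was -0.73 log2 on 6 arrays (adjusted p = 0.283), and without placebo replicate 3 Itgb8 passed at -0.99 log2 (adjusted p = 0.0180). Itgb6, an epithelial subunit with a like role, measured 3.99, 3.73 and 4.10 in the E2 tumours, against 4.01, 4.52 and 5.91 in the placebo tumours. It was under the lower quartile of all genes (4.22 to 4.39 by array) on all E2 arrays and on 1 placebo array, so those values were not shown to be above background, and its highest value was in placebo replicate 3. Itga5, the fibronectin receptor subunit, differed by 0.04 log2 (95% interval -0.23 to 0.31). Itga8, a receptor subunit of smooth muscle and kidney, differed by -0.04 (-0.76 to 0.69), and Itga2b, the platelet fibrinogen receptor subunit, by 0.01 (-0.26 to 0.28). The direction of these last 3 genes changed with the arrays or the scaling used.

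Of the 9 leukocyte and alpha-4 family subunits, 8 had lower means with E2, beside 10306 of all 19937 genes, and the exception was Itga9. Itga4, which pairs with beta-1 or beta-7 to bind VCAM-1 and fibronectin on leukocytes and some other cells, measured 4.85, 4.53 and 4.66 in the E2 tumours, against 5.31, 5.64 and 5.55 in the placebo tumours. The groups did not overlap, and the difference of -0.82 log2, or 1.76-fold lower (SE 0.13, 95% interval -1.14 to -0.50), missed the threshold narrowly (limma adjusted p = 0.0521). It passed under median centring (adjusted p = 0.0346), repeated quantile normalization (0.0407), a trended and robust variance (0.0398), array weights (0.0157) and without placebo replicate 3 (0.00956). It did not pass with the replicate number as a block (0.263) or without placebo replicate 1 (0.095) or 2 (0.117) or E2 replicate 1 (0.148), 2 (0.231) or 3 (0.239). Its difference ranged from -0.91 to -0.74 log2 as each array was left out.

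Itgb2, the beta subunit common to the leukocyte integrins, measured 6.07, 6.10 and 6.19 in the E2 tumours, against 6.57, 6.85 and 6.18 in the placebo tumours. Placebo replicate 3 lay among the E2 tumours. On 6 arrays the difference was -0.42 log2 (adjusted p = 0.317), and without that array Itgb2 passed at -0.59 log2 (adjusted p = 0.0133). Itgam, the alpha subunit of macrophages and neutrophils, measured 5.97 ± 0.29 in the E2 tumours and 6.58 ± 0.18 in the placebo tumours (SD, n = 3 each), without overlap (adjusted p = 0.176). Itgax, found on dendritic cells and some macrophages, was 0.58 log2 units lower (adjusted p = 0.297), with its highest value, 5.38, in placebo replicate 3 and 1 E2 array under the lower quartile of genes. Itgae, of lymphocytes within epithelia, was under that lower quartile on all E2 arrays and 1 placebo array, did not overlap between groups, and was also highest in placebo replicate 3, at 4.95. Itgal, Itgad and Itgb7 differed by -0.15, -0.15 and -0.16 log2, with 95% intervals of -0.46 to 0.15, -0.39 to 0.08 and -0.43 to 0.10. With the mean of its probe sets, Itgad differed by -0.09 log2.

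General leukocyte markers were lower beside these integrins. Their summed intensity was 485 to 614 in the E2 tumours and 697 to 1237 in the placebo tumours, where placebo replicate 3 was the lowest. Of the 10 markers, Ptprc, the leukocyte phosphatase gene, and Coro1a, a leukocyte actin regulator, fell on 6 arrays (2 fell, background 0.326%, and 0 rose), by 1.11 and 0.63 on the log2 scale (limma adjusted p = 0.0388 and 0.0429). All 10 fell without placebo replicate 3 (background 5.21%). The macrophage list without Itgam and Itgax had summed intensities of 1326 to 1784 in the E2 tumours and 1855 to 4312 in the placebo tumours. None of its 14 genes passed on 6 arrays (limma, 4 at an unadjusted p under 0.05, background 16.5%), where Aif1 and Lyz2, both of myeloid cells, came closest (-0.86 and -1.43 log2, adjusted p = 0.0630 and 0.0635). On 5 arrays 12 of the 14 fell (background 5.21%). Csf3r, the granulocyte colony-stimulating factor receptor gene, fell by 0.86 on the log2 scale (limma, adjusted p = 0.0214) as the 1 neutrophil marker of 10 to pass (background 0.326% lower). It was also the only 1 of the 10 at an unadjusted p under 0.05 (background 16.5%). T, B and natural killer cell markers gave 0 calls of 13 in either fit (limma, 1 at an unadjusted p under 0.05 on 6 arrays, background 16.5%). The smallest p were those of Nkg7, a cytotoxic granule gene, and Cd4, a T cell co-receptor gene (-0.46 and -0.37 log2, adjusted p = 0.243 and 0.334). Nkg7 was under the lower quartile on all 3 E2 arrays and 1 placebo array, and 4 of the 13 markers were under it on every array, so these differences were not shown to be above background. The list had mean levels of 3.95 to 4.08 in the E2 tumours and 4.12 to 4.48 in the placebo tumours. The part of leukocyte RNA in the integrin values was not tested.

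Itga9, whose product pairs with beta-1 to bind tenascin-C and VCAM-1 and is not restricted to leukocytes, went the other way. It measured 6.57, 6.11 and 6.56 in the E2 tumours, against 5.67, 5.61 and 5.86 in the placebo tumours. All E2 tumours lay above all placebo tumours, by 0.70 log2, or 1.62-fold (SE 0.16, 95% interval 0.32 to 1.08, adjusted p = 0.103). It passed on 5 arrays at 0.77 log2 (adjusted p = 0.0154). Its difference ranged from 0.62 to 0.85 log2 as each array was left out.

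**Figure D4:**
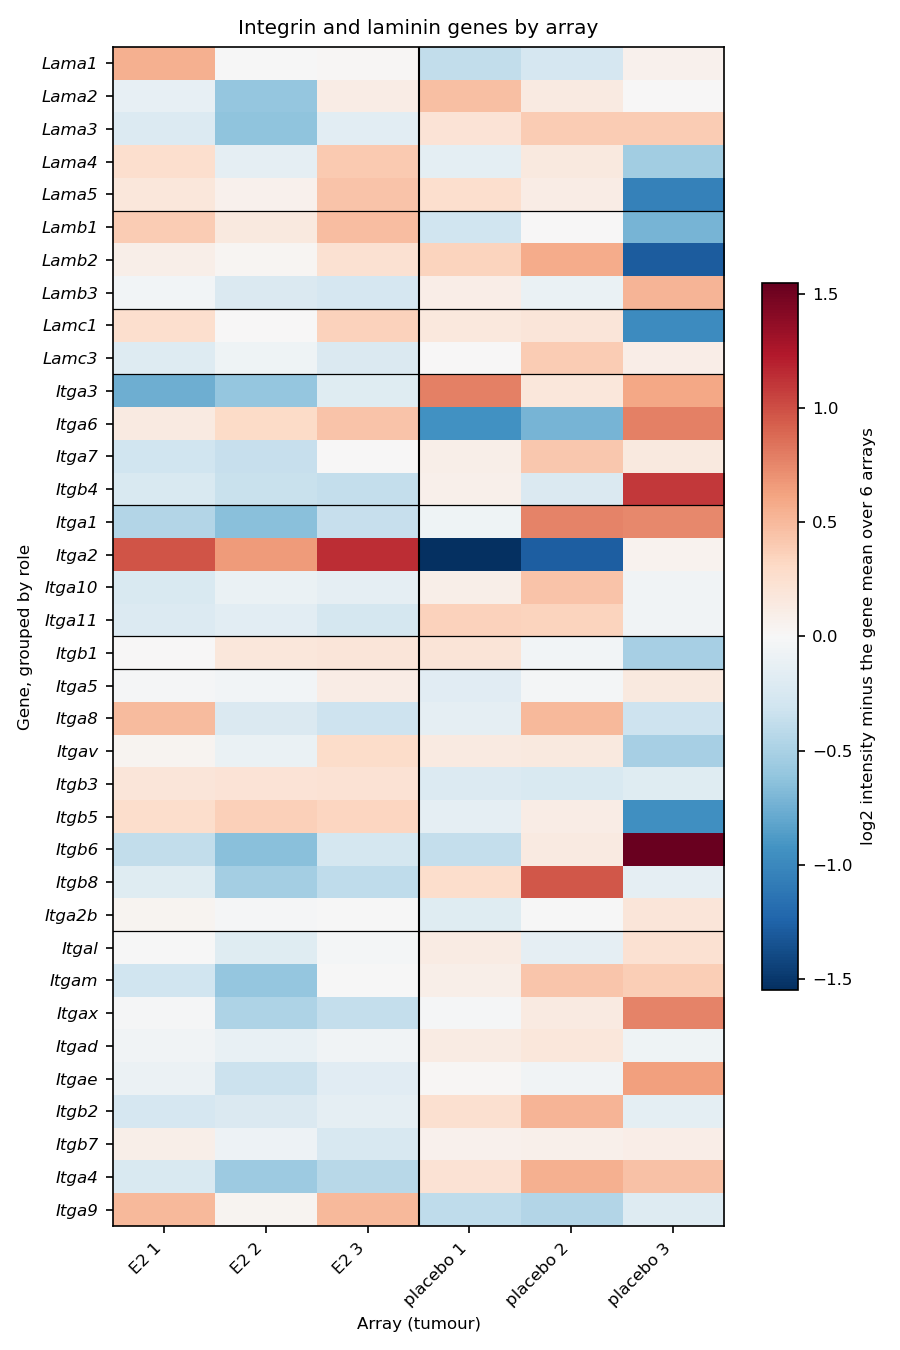
Log2 intensity of each of the 36 genes in each tumour minus the gene's mean over 6 arrays (red above, blue below), with E2 tumours left of the black line and genes grouped by role. Placebo replicate 3 departs from the other placebo tumours in both directions, low for Lama5, Lamb2, Lamc1 and Itgb5 and high for Itgb4, Itgb6 and Itga6.

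With placebo replicate 3 included, the spread among placebo tumours was larger than that among E2 tumours. The median SD over the 36 genes was 0.16 log2 in the E2 group and 0.33 log2 in the placebo group, and the placebo SD was the larger in 28 of the 36 genes (77.8%, against 71.9% of all genes). Between placebo replicates 1 and 2 alone the median SD was 0.17 log2. Over all genes the median SD was 0.10 log2 in the E2 group and 0.18 log2 in the placebo group. Placebo replicate 3 was highest for Itga5, Itga6, Itga2b, Itgae, Itgal, Itgax, Itgb4, Itgb6, Itgb7 and Lamb3. Relative to the mean of the other placebo tumours it lay higher by 1.65 log2 units for Itgb6, 1.61 for Itga6, 1.47 for Itga2 and 1.18 for Itgb4, the 4 largest such gaps above 0. The gap was 0.12 for Itga3 and 0.09 for Lama3, and it was -1.23 for Lama5. The summed intensity of the intestinal epithelium markers was 379 to 490 in the E2 tumours and 412 to 426 in placebo replicates 1 and 2, against 35257 in placebo replicate 3. The part of this signal in the integrin and laminin values of that array was not tested.

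The basement membrane partners of the laminins changed in a divided way. Of the 24 genes, 2 rose (background 1.06%) and 0 fell (background 0.326%) on 6 arrays (list median -0.21 log2). They were Col4a1 and Col4a2, which encode the chains of the main type IV collagen network. Col4a2 measured 8.21, 7.98 and 8.25 in the E2 tumours, against 6.78, 6.73 and 6.87 in the placebo tumours, and rose by 1.35 on the log2 scale (SE 0.10, limma adjusted p = 0.00615). Col4a1 measured 8.12, 7.82 and 8.27 in the E2 tumours, against 6.76, 6.81 and 6.85 in the placebo tumours, and rose by 1.26 (SE 0.13, adjusted p = 0.0160). Their E2 tumours lay well above all placebo tumours, including placebo replicate 3. In the 5-array fit 2 of the 24 rose (background 6.4%) and 12 fell (background 5.21%). Those that fell included Nid1 and Nid2, the nidogens that link laminin to type IV collagen (-0.84 and -1.13 log2, adjusted p = 0.0147 and 0.00181), Agrn, a heparan sulphate proteoglycan that binds laminin (-0.57, adjusted p = 0.0127), and Col18a1, a collagen of epithelial and vascular basement membranes (-2.28, adjusted p = 2.33e-05).

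Among 25 measured ligands of integrins other than laminins, 1 rose (background 1.06%) and 0 fell (background 0.326%) on 6 arrays (list median -0.01 log2). It was Thbs2, a matricellular thrombospondin, at 9.66, 9.74 and 9.22 in the E2 tumours, against 7.30, 7.32 and 6.95 in the placebo tumours. Thbs2 rose by 2.35 on the log2 scale (SE 0.18, limma adjusted p = 0.00615). With placebo replicate 3 left out, 5 of the 25 rose (background 6.4%), including Thbs1 (1.06 log2, limma adjusted p = 0.00285). In that fit 3 fell (background 5.21%), including Vcam1, the endothelial and stromal ligand of the Itga4 and Itga9 products (-1.10 log2, adjusted p = 0.0365).

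The laminin receptors that are not integrins gave 0 calls of 14 on 6 arrays (list median -0.17 log2). At an unadjusted limma p under 0.05 there were 2 of 14 (14.3%), against 16.5% of all genes. They were Sgce, a sarcoglycan (-1.10 log2, adjusted p = 0.230), and Cd151, a tetraspanin that associates with laminin-binding integrins (0.32 log2, adjusted p = 0.299). On 5 arrays 4 of the 14 fell (background 5.21%) and 0 rose (background 6.4%). They were Sgce (-1.54 log2), Sgcb, another sarcoglycan (-1.11), Sdc2, a syndecan (-1.09), and Bcam, a receptor of the laminin alpha-5 chain (-1.99, adjusted p = 0.000294). Bcam is the receptor of the chain whose gene, Lama5, differed by 0.04 log2 on the same arrays.

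In the focal adhesion and integrin activation list, 1 of 33 genes passed on 6 arrays (background 1.38%) and the list median was 0.01 log2. Ptk2b, the kinase related to focal adhesion kinase that is abundant in blood cells, measured 5.47, 5.44 and 5.61 in the E2 tumours, against 6.57, 6.26 and 6.78 in the placebo tumours, and fell by 1.03 on the log2 scale (SE 0.15, limma adjusted p = 0.0388). On 5 arrays 5 of the 33 fell (background 5.21%) and 0 rose (background 6.4%). They were Ptk2b, Fermt3, the kindlin of blood cells (-0.45 log2), Parvg, the parvin of blood cells (-0.57), Parvb (-0.52) and Tns3, a tensin (-0.64). Of the 6 hemidesmosome partners 0 passed on 6 arrays (limma, 2 at an unadjusted p under 0.05, background 16.5%). Krt14, a basal epithelial keratin, measured 5.38, 5.30 and 5.43 in the E2 tumours, against 8.26, 7.37 and 6.08 in the placebo tumours (-1.86 log2, adjusted p = 0.166). Without placebo replicate 3 it passed at -2.44 log2 (adjusted p = 0.000684).

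**Figure D5:**
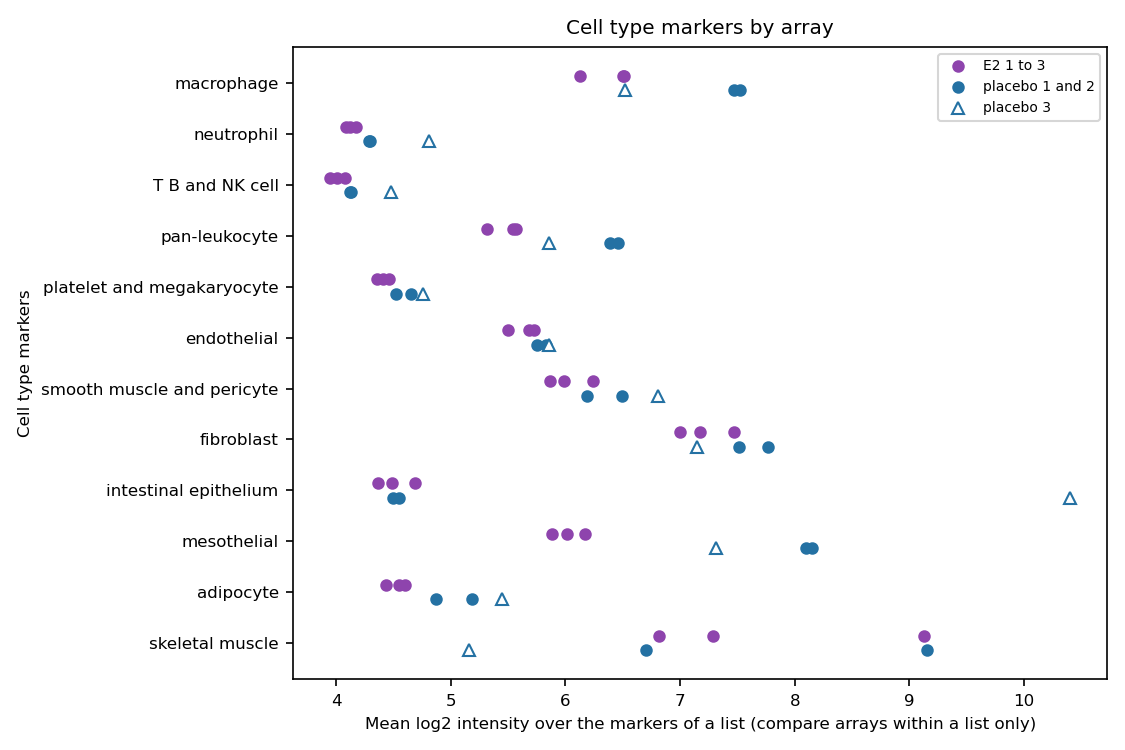
Mean log2 intensity of each cell type marker list by array, with E2 tumours (purple) above placebo replicates 1 and 2 (filled blue) and placebo replicate 3 (open triangle). Intestinal epithelium markers average 10.40 in placebo replicate 3 and at most 4.69 elsewhere, and macrophage markers average 6.13 to 6.51 in the E2 tumours, 6.52 in placebo replicate 3 and 7.47 and 7.52 in the other placebo tumours.

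Endothelial markers, set beside Lama4, Itga1 and Itgb3 because vessels carry them, were divided. Of 18, Kdr, the VEGF receptor gene, and Ramp2, a receptor-associated protein gene, rose on 6 arrays (2.07 and 0.85 log2, limma adjusted p = 0.0136 and 0.0121). These 2 rises stood beside a background of 1.06%, and 0 fell. The list median was -0.35 log2. In the 5-array fit 2 rose (background 6.4%) and 4 fell (background 5.21%), among them the junction genes Pecam1 and Cdh5 (-0.61 and -0.70 log2, adjusted p = 0.0498 and 0.0283). Of the 18, 16 had lower means with E2, beside 10306 of all 19937 genes. At an unadjusted limma p under 0.05 there were 2 higher (background 10.4%) and 9 lower (background 6.16%). The mean endothelial level was 5.50 to 5.73 in the E2 tumours and 5.75 to 5.86 in the placebo tumours, lower on every E2 array, while the summed intensity was 1097 to 1399 in the E2 tumours and 1041 to 1155 in the placebo tumours. The part of endothelial RNA in the Lama4, Itga1 and Itgb3 values was not tested. Adipocyte markers had summed intensities of 209 to 234 in the E2 tumours and 295 to 639 in the placebo tumours, and Adipoq, the adiponectin gene, fell by 0.85 on the log2 scale (limma adjusted p = 0.0460), although all 3 E2 arrays were under the lower quartile for it.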

How the data were processed

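RNA from 6 tumours, 3 per group, was read on 1 single-colour whole-transcript array each. For each probe set the authors deposited a log2 intensity, which the submitters' processing notes credit to RMA. Its software version and the genome build are not stated there. RMA compresses differences near background. Of 34760 probe sets, 21640 had 1 gene symbol, 1321 had several and 11799 are unnamed here. The probe set with the highest mean stood for a gene, leaving 19937 genes, and no dim gene was removed. Groups came from the sample titles, and the series calls the tumours biological replicates, so p-values reflect variation from tumour to tumour.

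The contrast E2 minus placebo was fitted without covariates in limma 3.58.1 (lmFit, eBayes; R 4.3.3), with both directions tested, Benjamini-Hochberg adjustment over all genes and a threshold of 0.05. The limma step was tested on simulated data, with independent noise of equal spread on every array and no outlying array. That test does not cover calls that depend on placebo replicate 3. Summed intensities are sums of values taken out of log2. The family and the gene lists were chosen with earlier results of these data known. Every member is named. From each other list the text names up to 4 called genes of smallest p, or 2 where none was called, and genes named beyond that (Nid1, Nid2, Agrn, Col18a1, Thbs1, Vcam1, Bcam, Sgcb, Sdc2, Fermt3, Parvb, Parvg, Tns3, Pecam1, Cdh5) were chosen after their values were seen. Alternatives left out each array, used the replicate number as a block, array weights, a trended and robust variance, median centring, quantile normalization run again, the mean of probe sets, and a filter at the 25th percentile of mean level. The correlations of same-numbered tumours' deviations from their group means were -0.182 to -0.0287, so the numbers were not treated as pairs.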

Additional observations from a re-analysis of the deposited data

How the results depend on the processing

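With the replicate number as a block, 0 of the 36 integrin and laminin genes passed, as in the unblocked fit, and the partner and marker genes gave 1 rise and 0 falls, against 5 and 7 of 249 without the block. The design text of the series names no block, and whether the numbers stand for pairs or a shared batch is not known. With array weights, 4 integrin and laminin genes passed higher and 6 lower, 10 of the 11 that passed without placebo replicate 3, and placebo replicate 3 had a weight of 0.149. Among partner and marker genes 8 passed higher and 67 lower. Median centring, repeated quantile normalization and a trended and robust variance each gave 1 lower integrin, Itga4, and median centring gave 11 lower partner and marker genes. Leaving out 1 array gave 0 to 4 higher and 0 to 7 lower integrin and laminin genes, the most without placebo replicate 3, and 0 to 11 higher and 0 to 80 lower partner and marker genes, again the most without placebo replicate 3 and the fewest without E2 replicate 1. The median over the 36 genes lay between -0.26 and -0.15 log2 in those fits and at -0.07 log2 after repeated quantile normalization. The cause of these shifts was not tested.

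The direction changed for 5 members, none past the threshold in any fit. Lamb2 was at -0.34 log2 without placebo replicate 3 and at -0.25 with array weights. Itgav was at -0.08 without placebo replicate 3, -0.03 after quantile normalization and -0.07 with array weights. Itga8 was at 0.21 without placebo replicate 2, 0.07 and 0.11 without E2 replicates 2 and 3, 0.08 after quantile normalization and 0.01 after median centring. Itga5 was at -0.04 without placebo replicate 1, -0.01 without E2 replicate 3 and -0.06 after quantile normalization, and Itga2b at -0.08 without placebo replicate 1 and -0.01 without E2 replicate 1. Acta1, a muscle marker, was at -0.02 without placebo replicate 3. With 1 array left out, the differences ranged from -0.34 to 0.59 for Lamb2, -0.08 to 0.26 for Itgav, -0.29 to 0.21 for Itga8, -0.04 to 0.13 for Itga5, -0.08 to 0.10 for Itga2b and -0.02 to 2.13 for Acta1. The mean of probe sets and the filter on dim genes changed no call among the members, and the filter left 35 of them. Over all genes, the 211 higher and 65 lower calls became 10 and 0 with the block, 1026 and 760 with array weights, 342 and 80 with median centring, and 31 to 1276 and 0 to 1039 with 1 array left out. The 3 arrays per group limit the precision, and genes below the lower quartile (Itgb6 and Itgae on 4 arrays each, Itgax on 1) were not shown to be above background.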
